A study of Homo sapiens with 4 samples.

Results

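The 7 APOBEC3 genes, APOBEC3A, APOBEC3B, APOBEC3C, APOBEC3D, APOBEC3F, APOBEC3G and APOBEC3H, and SAMHD1 were followed in PC3 prostate cancer cells in which ALKBH3 had been knocked down with a lentiviral shRNA. The members were all probes whose RefSeq accession belongs to 1 of these 8 genes, and 10 of the 34127 probes on the arrays qualified, with 8 of 8 genes represented. APOBEC3F and SAMHD1 had a pair of probes each and the other genes 1 probe each.

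PC3 is an established line from a human prostate cancer metastasis, and ALKBH3 is an AlkB family enzyme that removes methyl groups from alkylated single-stranded DNA and from RNA. Cells were infected for 48 h with a lentiviral ALKBH3 shRNA, or with one against GFP as control, selected with puromycin, and collected 48 h or 96 h into selection. Total RNA of each of the 4 combinations was labelled with Cy3 and hybridised to 1 single-colour Agilent array. Both groups had therefore received a lentivirus, an integrated shRNA cassette and puromycin, and cells without virus were not analysed here. The control arrays are control shRNA at 48 h and at 96 h, and the knockdown arrays are ALKBH3 shRNA at 48 h and at 96 h. The labels do not give which of the ALKBH3 hairpins was taken or whether the time points came from separate infections. Each group of 2 arrays has its time points as its only repeat, and p-values measure the spread between these arrays alone. The 48 h arrays shared one slide and the 96 h arrays another, so time and slide cannot be told apart, whereas every comparison of the shRNAs can be made within a slide.

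APOBEC3 proteins are cytidine deaminases that turn cytosine into uracil in single-stranded DNA. Some of them are packaged into virions and mutate the cDNA of retroviruses, and APOBEC3A and APOBEC3B also leave mutations in tumour genomes. SAMHD1 is a deoxynucleotide triphosphohydrolase that lowers the dNTP pool and with it the reverse transcription of lentiviruses such as HIV-1, and it is best known from myeloid cells and resting T cells. In many cell types interferon raises the transcripts of several of these genes.

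Levels are given as log2 intensity relative to the 75th percentile of the same array, so that 0 is the level of that percentile, and differences are on the log2 scale. Levels of different probes cannot be compared, because each probe binds its target with its own efficiency. The intensity at the 75th percentile lay between 2150 and 2394 on the 4 arrays, between 67.0% and 70.9% of all probes were well above background, 0 spots were saturated and 0 spots of the members had been removed for quality. The targeted gene was low on the arrays labelled as its knockdown. The first ALKBH3 probe was at -0.63 on the control array and -2.67 on the knockdown array of 48 h, and at -0.61 and -2.68 on those of 96 h, a log2 difference of -2.05 (SE 0.11, n = 2 arrays a group, limma adjusted p = 0.228, or 0.0176 when the time point was a replicate block). The second ALKBH3 probe differed by -1.63 (SE 0.13, limma adjusted p = 0.247, or 0.0289 with the block). The markers listed for PC3, KRT8, KRT18, EPCAM, CDH1 and the mesenchymal VIM, were well above background on all 4 arrays for 5 of 5 genes. Of the prostate luminal markers, which PC3 were listed here as lacking, KLK3 was well above background on no array and KLK2 on all 4.

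Of the 10 member probes, 6 (5 genes) exceeded background clearly on both arrays of the control or of the knockdown group and entered the comparison of the shRNAs with 23244 probes in all. At a 2-fold change with an unadjusted limma p below 0.05, 0 member probes were called higher and 0 lower, beside 0.886% and 0.232% of all probes tested. At 1.5-fold, 1 member probe, of SAMHD1, was called higher and 0 lower, beside 2.56% and 1.26% of all probes. After Benjamini-Hochberg adjustment over all probes 0 members passed, as did 0% of all probes in either direction, whereas at an unadjusted p below 0.05 alone 1 member was higher and 0 were lower, beside 4.32% and 3.33%. The 6 tested probes split evenly, with 3 higher and 3 lower and a median of -0.0055, beside 0.0028 over all probes tested. Both SAMHD1 probes and the APOBEC3B probe were the 3 higher ones, and APOBEC3C, APOBEC3F and APOBEC3G the 3 lower ones. Each of the 3 higher probes was higher at both time points and more so at 48 h, as were 17% of all probes, and each of the 3 lower probes was lower at both and more so at 48 h, as were 18.4%. Whether a difference changed between time points could not be tested with 1 array for each. When the time point entered the fit as a block, 1 member passed the adjusted p upward and 0 downward, beside 1.97% and 0.977% of all probes, and 2 were higher and 2 lower at an unadjusted p below 0.05, beside 12.4% and 10.5%.

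**Figure D1:**
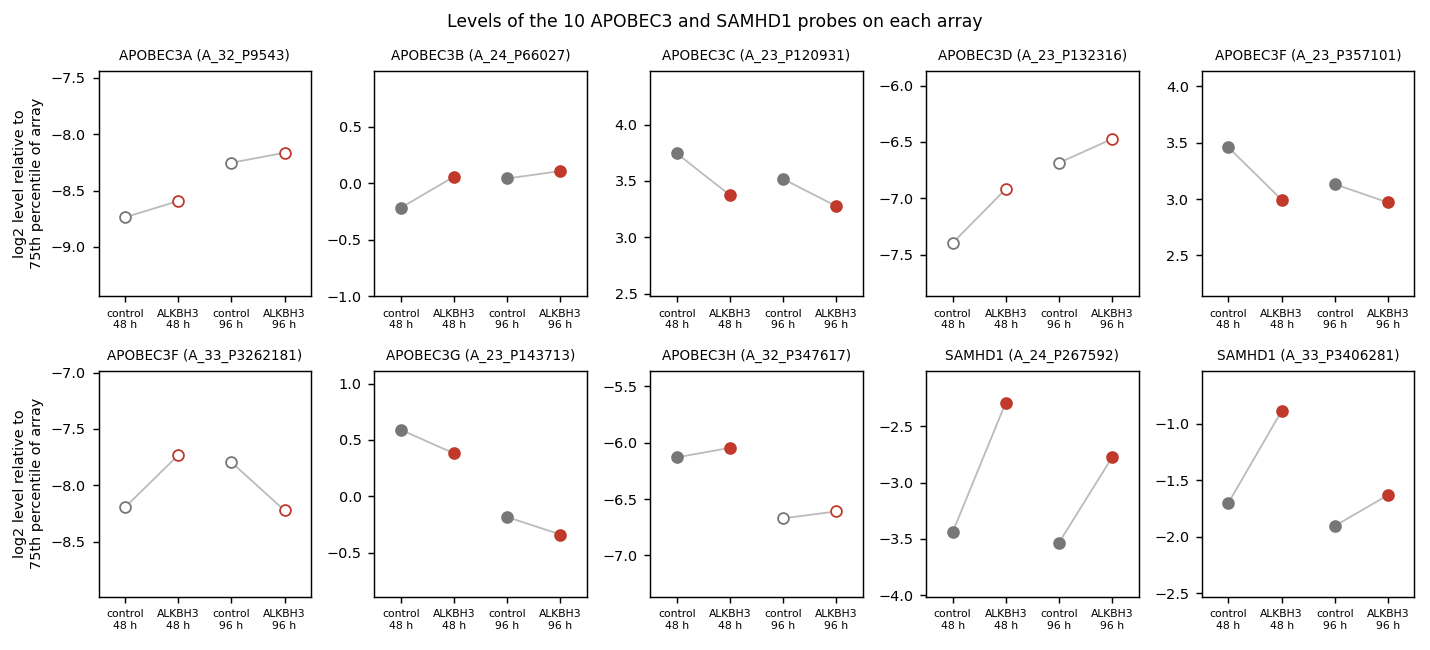
Each panel plots the log2 level of 1 probe, relative to the 75th percentile of its array, on the 4 arrays, with grey for control shRNA, red for ALKBH3 shRNA, a line joining the arrays of a time point and open circles where the probe was not well above background. Every panel spans 2 log2 units around its own mean, so steps can be compared by eye but heights cannot, and the SAMHD1 pair shows the steepest rise within both time points, while APOBEC3G steps down between them.

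SAMHD1 was the member with the largest difference. Its first probe (A_24_P267592) was at -3.44 under the control shRNA and -2.29 under the ALKBH3 shRNA at 48 h, and at -3.53 and -2.78 at 96 h, from processed intensities of 198, 467, 202 and 349. Both knockdown arrays lay above both control arrays, and the control arrays were close to each other. The ratio within a time point was 2.22-fold at 48 h, where 1.65% of all probes were at least 2-fold higher, and 1.69-fold at 96 h, where 1.32% were. Over the 4 arrays the log2 difference was 0.95 (SE 0.20, 95% interval 0.43 to 1.48), a 1.94-fold higher level that fell short of the 2-fold cutoff, with a limma unadjusted p of 0.00613 and an adjusted p of 0.395. Its size exceeded that of 98.3% of all probes tested. Without the control array at 48 h the difference was 1.0 and without the ALKBH3 array at 96 h it was 1.20, and in both cases the probe was called at 2-fold, in fits that leave 1 array in an arm and take the spread of that arm from the other. When the time point was a replicate block, the difference was the same and the limma adjusted p was 0.0421.

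The second SAMHD1 probe (A_33_P3406281), assigned to the same transcript accession, was at -1.70 under the control shRNA and -0.89 under the ALKBH3 shRNA at 48 h, and at -1.90 and -1.63 at 96 h, from intensities of 662, 1236, 625 and 772. Again both knockdown arrays were above both control arrays, but at 96 h by a smaller step, 1.21-fold against 1.76-fold at 48 h. The log2 difference of 0.54 (SE 0.28, 95% interval -0.19 to 1.28) did not pass (limma adjusted p = 0.754, or 0.136 with the block). It was 0.17 without the ALKBH3 array at 48 h and 0.92 without that at 96 h. The groups did not overlap in the upward direction for 17.4% of all probes tested, so this alone does not set the 2 probes apart.

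**Figure D2:**
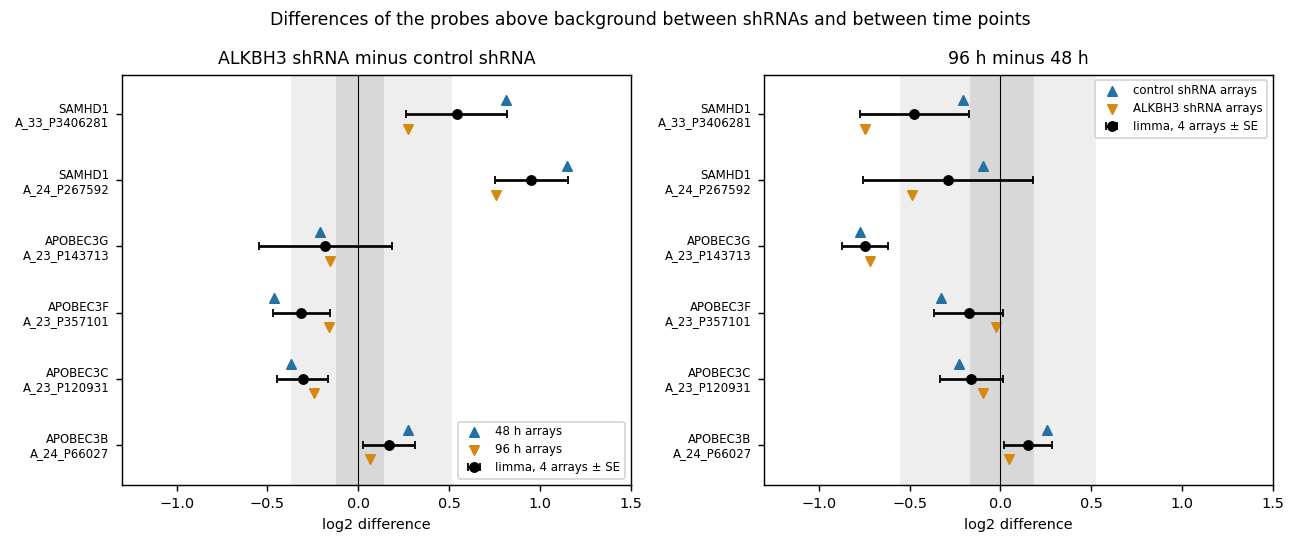
The left panel plots the log2 difference between ALKBH3 and control shRNA for the 6 tested probes, with the limma estimate over 4 arrays (black, bars are ± SE) and the values of the 48 h and 96 h arrays alone (triangles), and the right panel plots the difference between 96 h and 48 h for the same 6 probes, with triangles for each shRNA. Dark and light bands hold the middle 50% and the middle 90% of all probes tested, and the SAMHD1 probes at 0.95 and 0.54 on the left and APOBEC3G at -0.75 on the right lie outside the light bands.

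The sequence upstream of SAMHD1 is shown because it belongs to the member with the largest difference. The RefSeq promoter table of GRCh38.p14 held 2 of the 8 members, SAMHD1 and APOBEC3H. The 250 bases before the SAMHD1 start lie at chr20:36951709-36951958 on the minus strand, and capitals mark the CpG dinucleotides, the sites of DNA methylation in mammals.
SAMHD1 promoter: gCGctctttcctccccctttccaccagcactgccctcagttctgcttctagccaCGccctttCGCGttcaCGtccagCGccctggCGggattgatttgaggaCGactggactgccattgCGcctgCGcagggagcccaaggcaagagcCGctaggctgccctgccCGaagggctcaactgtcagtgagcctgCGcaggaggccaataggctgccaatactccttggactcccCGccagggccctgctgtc
This stretch is 64.0% GC and holds 14 CpG, beside a median of 11 over 27305 promoters of the same length, of which 55.3% hold fewer. On either strand it held 0 copies of GAAA, any 2 bases and GAAA, the core of the interferon-stimulated response element (ISRE) bound by interferon-activated factors, a match found in 3.07% of all promoters. It also held 0 copies of TTC, any 3 bases and GAA, the gamma-activated site, found in 6.78%, and 0 copies of GGG, any 5 bases and CC, a loose NF-kB motif found in 53.7%. These counts say only that the letters are not in this window.

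APOBEC3C, which restricts some retroviruses weakly, was measured by 10 spots of 1 probe on every array and so had the best technical precision of the members. At 48 h the spots averaged 3.74 on the control and 3.37 on the knockdown array, and at 96 h 3.52 and 3.28, with spot SDs between 0.058 and 0.083. Within each time point all 10 knockdown spots were lower than every control spot, the nearest being 3.51 against 3.69 at 48 h and 3.40 against 3.45 at 96 h. Spots of 1 array share their RNA, so they measure the array and are not replicates of the knockdown. Over arrays the knockdown group was below the control group without overlap, as for 18.6% of all probes in that direction. The log2 difference was -0.37 at 48 h, -0.24 at 96 h and -0.31 over both (SE 0.14, 95% interval -0.68 to 0.06, limma adjusted p = 0.714, or 0.146 with the block).

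**Figure D3:**
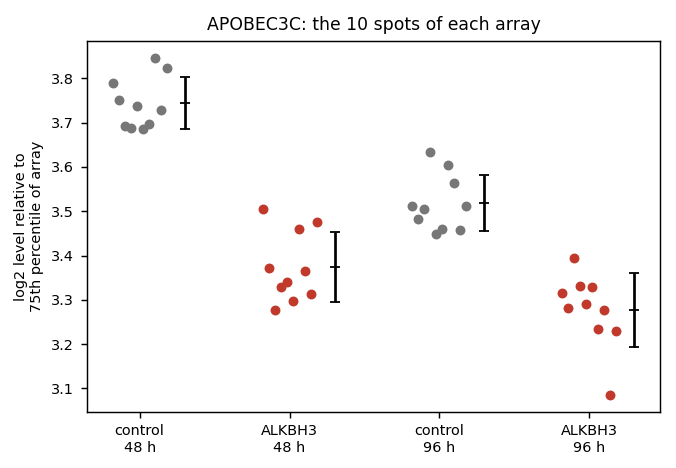
The log2 level of each of the 10 APOBEC3C spots is plotted for the 4 arrays, grey for control and red for ALKBH3 shRNA, with the mean and SD of the spots in black at the right of each set, on an axis that does not start at 0. The red spots of each time point lie below all grey spots of the same time point, with means of 3.37 against 3.74 at 48 h and 3.28 against 3.52 at 96 h.

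APOBEC3F, a packaged deaminase that acts against HIV-1 lacking Vif, had almost the same course as APOBEC3C. Its full-length probe (A_23_P357101) was at 3.46 under the control shRNA and 2.99 under the ALKBH3 shRNA at 48 h, and at 3.13 and 2.97 at 96 h. Both knockdown arrays were below both controls and close to each other. The log2 difference was -0.46 at 48 h, -0.16 at 96 h and -0.31 overall (SE 0.16, 95% interval -0.73 to 0.10, limma adjusted p = 0.744, or 0.191 with the block). The other APOBEC3F probe, assigned to a short isoform, was not well above background on any array, with intensities between 7.35 and 10.8.

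The course of APOBEC3F over the 4 arrays, each centred on its mean, lay at a root mean square distance of 0.0436 log2 from that of APOBEC3C, and 0.668% of the 18699 probes compared came closer. These genes are close relatives on chromosome 22, and no probe sequence was at hand to check whether a probe could bind the transcript of its neighbour. The SAMHD1 probes lay 0.228 apart, a distance that 1.30% of the compared probes undercut.

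APOBEC3B, a nuclear deaminase that is often raised in cancers, was at -0.22 under the control shRNA and 0.06 under the ALKBH3 shRNA at 48 h, and at 0.04 and 0.11 at 96 h. The knockdown arrays were above the control arrays by a narrow margin, and the log2 difference of 0.17 (SE 0.14, 95% interval -0.21 to 0.55) did not pass (limma adjusted p = 0.887, or 0.371 with the block). Its interval leaves room for no change and for a rise of about the size of the second SAMHD1 probe. The position of APOBEC3B among all probes was ordinary, with a smaller size in 61.3% of them.

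APOBEC3G, the deaminase that HIV-1 Vif targets for degradation, differed between the time points by more than between the shRNAs. It was at 0.59 under the control shRNA and 0.38 under the ALKBH3 shRNA at 48 h, and at -0.18 and -0.34 at 96 h, from intensities of 3234, 2975, 2060 and 1894. Both 96 h arrays were below both 48 h arrays, whereas the shRNA groups overlapped. The difference between shRNAs was -0.21 at 48 h, -0.15 at 96 h and -0.18 over both (SE 0.37, 95% interval -1.15 to 0.78, limma adjusted p = 0.975, or 0.288 with the block). It was 0.20 without the control array at 48 h and 0.18 without the ALKBH3 array at 96 h. Those fits set arms with unequal time points against each other, so the difference between time points entered them.

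Between 48 h and 96 h, with both shRNAs together, 7 member probes of 6 genes were tested among 23274. One of them, APOBEC3H, entered only through the 48 h arrays, so the counts below are of the other 6 probes, which were well above background on all 4 arrays. The shares of all probes beside them also include probes that entered through the arrays of 1 time point alone. At 2-fold and an unadjusted p below 0.05, 0 members were called higher and 0 lower, beside 0.327% and 0.666% of all probes. At 1.5-fold, 0 members were called higher and 1 lower, which was APOBEC3G, beside 3.2% and 2.84% of all probes. Of the 6 probes 1 was higher, APOBEC3B, and 5 were lower, with a median of -0.23 beside 0.0093 over all probes. The same 5 were lower under both shRNAs, as were 36.4% of all probes, and the time points did not overlap for 1 of them, APOBEC3G, beside 28.6% of all probes higher and 24.4% lower without overlap. After adjustment 0 members passed in limma, 1 was lower at an unadjusted p below 0.05 (beside 8.41% of all probes), and with shRNA as a block 0 passed the adjusted p upward and 1 downward, beside 5.49% and 5.32% of all probes.

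That one was APOBEC3G. It differed by -0.77 with control shRNA and -0.72 with ALKBH3 shRNA, and by -0.75 over both (SE 0.13, 95% interval -1.08 to -0.41), which is 0.596 of the 48 h level (limma adjusted p = 0.123, or 0.0265 with shRNA as a block). Its size exceeded that of 95.9% of all probes tested. APOBEC3H, a deaminase whose common human forms differ in stability, was at -6.13 under the control shRNA and -6.05 under the ALKBH3 shRNA at 48 h, and at -6.67 and -6.61 at 96 h. It was well above background on both 48 h arrays and on neither 96 h array, at intensities of only 30.7 and 34.6 against 23.0 and 24.5. On this scaling its 48 h level was 1.37-fold the lowest signal well above background on each 96 h array, or the probe's own signal where that was higher. That ratio is no lower limit, because brighter probes also failed to be well above background, such as LUM at -6.19 on the control array of 96 h. The measured log2 difference was -0.55 and ran from -0.84 with quantile normalization to -0.18 with normexp background correction, a smaller change than that ratio. Since the filter admitted the probe through its brighter arrays, no test is given.

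The other members differed less between the time points or varied with the shRNA. The first SAMHD1 probe fell short of the test with -0.09 under control shRNA and -0.49 under ALKBH3 shRNA (limma adjusted p = 0.767), and the second with -0.20 and -0.75 (limma adjusted p = 0.446). The larger differences of SAMHD1 were thus on the knockdown arrays, a difference between shRNAs that was not tested. APOBEC3B, APOBEC3C and APOBEC3F had limma adjusted p-values of 0.569, 0.649 and 0.649.

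APOBEC3A, an interferon-inducible deaminase of myeloid cells, and APOBEC3D, a packaged deaminase, were not well above background on any array, with intensities between 5.04 and 8.35 and between 12.8 and 26.9. No direction is given for them. The same held for all 4 listed relatives outside the APOBEC3 genes, APOBEC1, APOBEC2 and APOBEC4 among them, which were well above background on 0 of 4 arrays.

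On chromosome 22 the 7 APOBEC3 genes stand in the order A, B, C, D, F, G, H between CBX6 and CBX7, chromatin readers of the Polycomb group. In the gene order of RefSeq the flanking NPTXR and CBX6 differed by 0.16 and -0.11 and CBX7 and PDGFB by -0.36 and 0.06, and 0 of these 4 passed the limma test (adjusted p between 0.712 and 0.975). Beside SAMHD1 on chromosome 20, DSN1, MTCL2, RBL1 and MROH8 differed by 0.08, -0.19, 0.01 and 0.38, and again 0 of 4 passed. Of the 4 tested APOBEC3 genes, 1 had a positive and 3 a negative value.

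The 3 named genes whose course over the 4 arrays came closest to each member were found among 18699 probes by the root mean square distance of centred levels. For the first SAMHD1 probe these were GPR143, PLAC8 and KRT75, at distances between 0.0450 and 0.0499, with differences between shRNAs of 0.98, 0.95 and 0.97. For the second SAMHD1 probe these were ISG20, IL15RA and RBCK1, at distances between 0.0157 and 0.0241, with differences of 0.52, 0.56 and 0.57. For APOBEC3C they were ZFAT, PPM1M and RRAS, for APOBEC3F EN1, FEZ2 and TBC1D8B, for APOBEC3B PANX2, SRGAP1 and ZNF343, and for APOBEC3G LDAF1, BTN2A2 and TMEM135. With 4 points, many probes have a similar course, and the choice by likeness carries no test.

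Other genes listed here as retroviral restriction factors, although MX1 among them acts mainly against other viruses, were set beside the members. Of 38 genes listed, 36 were on the array and tested, of which 27 were higher and 9 lower with ALKBH3 shRNA, and 7 were called higher and 0 lower, beside 0.886% and 0.232% of all probes. Their median difference was 0.33, beside 0.0028 over all probes, and it was 0.59 at 48 h and 0.14 at 96 h. At a Benjamini-Hochberg p with time point as a block 4 passed upward, beside 1.97% of all probes, and that fit called 9 at 2-fold. The number called was 1 without the ALKBH3 array at 48 h or the control array at 96 h, and 12 without the ALKBH3 array at 96 h, where the median was 0.77. The listed genes that were called are known as interferon-stimulated genes, many of which were already known from these arrays to be raised, so that the list is no independent evidence of its direction.

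MX2, a GTPase that blocks the nuclear import of HIV-1, was at 0.56 under the control shRNA and 3.32 under the ALKBH3 shRNA at 48 h, and at 0.01 and 1.37 at 96 h. Its log2 difference was 2.06 (SE 0.68, limma adjusted p = 0.597). IFI16, a DNA sensor, differed by 1.58, OAS1, an activator of RNase L, by 1.42, and MX1, a GTPase that acts mainly against influenza-like viruses, by 1.40, and all 3 were called at 2-fold. RSAD2, which makes a chain-terminating nucleotide, had the largest difference of 2.26 but an unadjusted limma p of 0.0501, so it was not called, whereas the fit with the block called it. MPHOSPH8, a subunit of the HUSH silencing complex, had the lowest value of -0.49 and was not called. The SAMHD1 probes, at 0.95 and 0.54, lay between the median of this list and the called genes. By the rule of the lists, the brightest tested probe, SAMHD1 would be represented by the second, at 0.54.

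**Figure D4:**
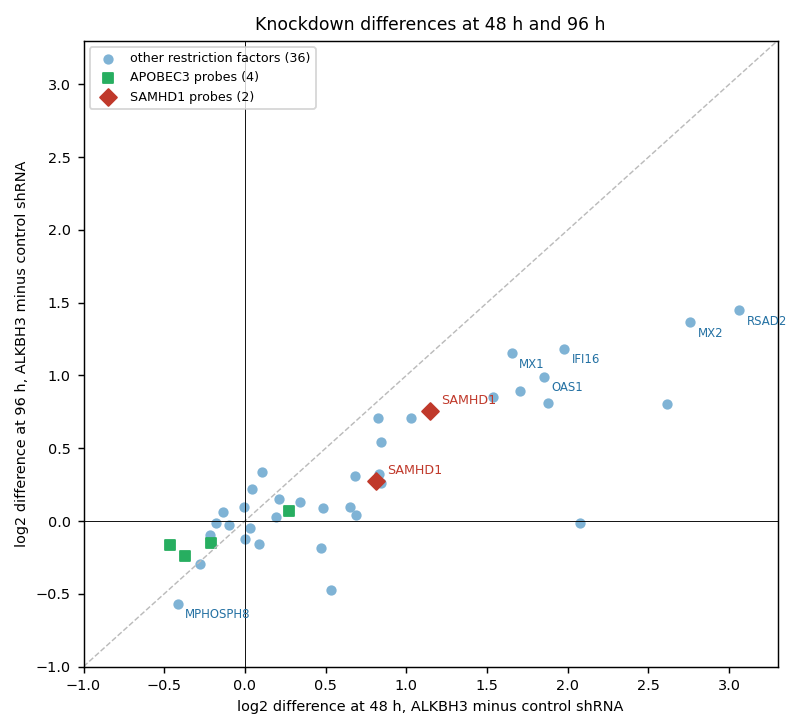
Each point is 1 probe, placed by its log2 difference between ALKBH3 and control shRNA at 48 h (horizontal) and at 96 h (vertical), with 36 other restriction factors as circles, the 4 tested APOBEC3 probes as squares and both SAMHD1 probes as diamonds, and the dashed line marks equal differences. The called factors lie at the right, below the line. SAMHD1 lies in the same direction, with 1.15 and 0.76 for its first probe and 0.81 and 0.27 for its second. The APOBEC3 squares lie between -0.46 and 0.28 at 48 h, with that of APOBEC3F, at -0.46, among the lowest 5% of all probes at that time (below -0.42).

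Matches of the ISRE core within 250 bases upstream show which of these neighbours share the motif that SAMHD1 lacks in its window. Of 28 factors with an entry in the RefSeq promoter table, 7 held a match on either strand, which were 3 of the 6 called and 4 of the 22 not called. The stretches of 30 bases of the 3 called genes are shown, chosen after their values were seen, with the matched 10 bases in capitals, read in the direction of the gene, from GRCh38.p14. HERC5 held 3 matches, of which the one nearest the start is shown.
HERC5 (chr4:88457035-88457064, plus strand, match on the opposite strand): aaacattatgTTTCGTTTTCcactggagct
IFITM1 (chr11:313990-314019, plus strand): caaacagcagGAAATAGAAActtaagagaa
LGALS3BP (chr17:78979962-78979991, minus strand): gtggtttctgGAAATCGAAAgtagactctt
HERC5, which attaches ISG15 to proteins, differed by 1.34, IFITM1, which blocks membrane fusion, by 1.30 and LGALS3BP, a secreted glycoprotein, by 1.20. MX1, IFI16 and OAS1 were called as well and had no match in their windows. The 4 not called that held a match differed by 0.55 to 1.71. Factors without a match, called or not, differed by -0.49 to 2.26. Whether a match goes with the difference was not tested.

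The genes that supply the dNTPs that SAMHD1 hydrolyses, such as ribonucleotide reductase and the nucleotide kinases, were listed as well. Of all probes 0.886% were called higher and 0.232% lower, so 0 called in a list this short is near that share. It is no result about the genes of this list or of the short lists below. Of 18 dNTP supply genes tested, 10 were higher and 8 lower, 0 were called, and the median difference was 0.0059. The lowest value was that of NME2, a nucleoside diphosphate kinase, at -0.17. Genes that remove the uracil left by deaminases gave 5 higher and 9 lower of 14, with 0 called and a median of -0.025. Their extremes were UNG, the main uracil glycosylase, at 0.09 and TDG, the thymine and uracil glycosylase, at -0.21.

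The kinases, cyclins and related genes that control SAMHD1 by phosphorylation gave 6 higher and 5 lower of 11, with a median of 0.0097. Of these 0 were called, beside 0.886% higher and 0.232% lower of all probes. CDK6, which is known to act on SAMHD1 through CDK2, had the lowest value of -0.38, and CCND3, a cyclin of CDK4 and CDK6, the highest of 0.39. The receptors and signalling genes of interferon gave 15 higher and 5 lower of 20, with 0 called, beside the same shares, and a median of 0.27. TYK2, a receptor-bound kinase, had the lowest value of -0.23. With time point as a block 2 of these signalling genes were called, as with the authors' normalized values, and 4 without the ALKBH3 array at 96 h, while the median was 0.062 without the ALKBH3 array at 48 h.

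The non-canonical NF-kB genes, a route that has been tied to APOBEC3B in cancer cells, gave 10 higher and 1 lower of 11, with a median of 0.17. Of these 0 were called, beside 0.886% higher and 0.232% lower of all probes. BIRC3, an inhibitor of apoptosis that is also an NF-kB target, was highest at 0.84 (limma adjusted p = 0.361, or 0.0399 with the block), and LTBR, the lymphotoxin receptor, lowest at -0.12.

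The markers of other cell types were read beside these values, since SAMHD1 and several APOBEC3 genes are abundant in blood cells. Of the 8 leukocyte markers between 5 and 7 were well above background on an array, and their summed linear level relative to the 75th percentile was 0.251 and 0.260 on the control arrays and 0.256 and 0.270 on the knockdown arrays at 48 h and 96 h, with a median difference of 0.07. PTPRC, the leukocyte marker CD45, differed by -0.09, and CD2, CSF1R and MS4A1 were well above background on 1 array each. Of the 4 fibroblast markers 2 or 3 were well above background, and their summed level was 0.637 and 0.401 with control shRNA and 0.992 and 0.772 with ALKBH3 shRNA. COL1A1 and DCN, well above background on all 4 arrays, were higher by 0.71 and 0.65 and not called at 2-fold. LUM, an extracellular matrix proteoglycan, was measured 1.98 higher, but it was not well above background on the control array of 96 h. Since the filter admitted LUM through the knockdown arrays alone, no call is given for it. COL1A2, a collagen I chain, was not well above background on any array. The part of these markers in the results was not tested, and fewer cells of a type and less RNA per cell cannot be told apart in RNA from whole cultures.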

How the data were processed

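For each of the 4 arrays the authors deposited spot intensities from Agilent Feature Extraction (version 10.7.3.1 per the file headers, an older one in the methods), background-subtracted on each array with no normalization between arrays, and their own limma-normalized log2 values. Marked spots were removed, log2 intensities were centred on the 75th percentile of the array and spots of a probe averaged. A probe was well above background when at least 0.5 of its spots were. Probes that reached this on both arrays of 1 group or more were tested by limma 3.58.1 (lmFit, eBayes, no covariate) in R 4.3.3 with the data.table package (1.17.8), and called at 2-fold and an unadjusted p below 0.05. Lists used 1 probe a gene, the brightest tested. Spot tables carry no gene name, so accessions were matched to RefSeq (GRCh38.p14 for names, order and promoters, the files being on hg19), which named 24910 of 34127 probes.

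The members and lists were chosen with earlier results of these data known. The text names every member, ALKBH3, the called genes and extremes of each list (at most 6) and the 3 genes nearest in course to each member, and names HERC5, IFITM1, LGALS3BP, the markers and chromosome neighbours beyond that rule. Some genes of the lists are not reported here by name. Alternatives were normexp (offset 50), quantile and median scaling, the percentile over bright probes only, the authors' values, other filters, 1 probe a gene, the methods' t-test, a replicate block, a cutoff of 1.5-fold and leaving out each array. Time points pair the arrays: over 22126 probes the change between time points in one shRNA correlated with that in the other at r = 0.705.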

Additional observations from a re-analysis of the deposited data

How the results depend on the processing

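Over 15 or 16 alternatives each, APOBEC3B, APOBEC3C, APOBEC3F and the second SAMHD1 probe kept their direction between shRNAs and were not called at 2-fold with an unadjusted p below 0.05, while the first SAMHD1 probe kept its direction and ranged from 0.69 to 1.20. The 1.5-fold cutoff called 1 member higher, the first SAMHD1 probe at 0.95, and 1 lower between time points, APOBEC3G at -0.75. With the methods' t-test in place of limma, that SAMHD1 probe had an unadjusted p of 0.0616. Leaving out 1 array gave 0 to 1 members called higher, with the first SAMHD1 probe between 0.71 and 1.20, past the 2-fold cutoff without the control array at 48 h (1.0) or the ALKBH3 array at 96 h (1.20). APOBEC3G then ranged from -0.57 to 0.20 between shRNAs, with the opposite sign at 0.20 and 0.18 without those same arrays. Within each time point its difference was negative. Between time points without the control array at 48 h, APOBEC3C was at 0.024 and APOBEC3F at 0.057, and the first SAMHD1 probe was at 0.28 without the ALKBH3 array at 48 h and 0.088 without the control array at 96 h, with lowest values of -0.35, -0.41 and -0.87.

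In the fit with the time point as a replicate block, the first SAMHD1 probe stayed at 0.95 (limma adjusted p = 0.0421) and the other members passed no adjusted p between shRNAs, although APOBEC3C, APOBEC3F and the second SAMHD1 probe then had unadjusted limma p-values of 0.0208, 0.0382 and 0.0179. APOBEC3F also had one of 0.0426 with normexp, and the second SAMHD1 probe one of 0.00808 without the ALKBH3 array at 96 h. Fits without 1 array leave 1 array in an arm, which is assumed to vary like the other arm. The arms then also differ in time point, or in shRNA when time points are compared, and that difference enters the estimate. The called interferon signalling genes rose from 0 to 2 with the block and with the authors' values, and to between 0 and 4 without 1 array, with a median from 0.062 to 0.43. The restriction factors' median then ranged from 0.15 to 0.77 and their calls from 1 (without the ALKBH3 array at 48 h or the control array at 96 h) to 12 (without the ALKBH3 array at 96 h). The median ranged from -0.17 to 0.088 for uracil repair, from -0.21 to 0.26 for SAMHD1 kinases and from 0.091 to 0.20 for non-canonical NF-kB, which was at 0.14 with median centring and 0.12 with the authors' values. Beyond the unequal arms of the fits without 1 array, the cause of these shifts was not tested. The number of arrays limits the precision, and no direction between shRNAs is given for members not well above background.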
